A study of Mus musculus with 20 samples.

Results

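Kctd14 (ENSMUSG00000051727) was described in granulosa cells (GCs) of mice, as 1 of the 55487 gene identifiers counted in each of 20 samples. The gene was chosen because its level in these samples was high in control mice in estrus, so that its own levels and fold changes are given here as a description and without a test. Tests were made only on other genes and on how they varied with Kctd14 between mice of the same group, which is independent of the differences between groups.

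The samples came from 4 groups of 5 mice, formed by line (FL1 or ctrl) and by stage of the cycle (estrus or diestrus). FL1 mice were bred over many generations for high fertility, ctrl mice were not selected, and both lines go back to the same founder population. The FL1 line was bred as 1 line, so that what selection did and what chance did in its breeding cannot be told apart. All mice were females of 77 ± 5 days without treatment or transgene. In each mouse 7 to 10 of the largest follicles were opened, the oocyte and its cumulus cells were left out, and the mural GCs of 1 mouse made 1 sample. The libraries were read from the 3′ end of polyadenylated RNA, 1 read per transcript, so that counts do not grow with the length of a transcript and levels can be compared between genes.

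Kctd14 codes for a member of the KCTD family, small proteins that share a potassium channel tetramerization domain of the BTB fold. Several members of this family bind cullin 3 and serve as adaptors that bring proteins to the CUL3 ubiquitin ligase, while other members bind GABA B receptors or repress transcription. GCs nourish the oocyte, make estradiol under the control of FSH while the follicle grows, and turn to progesterone after the LH surge. Samples of each stage were defined by the cycle and not by the follicle.

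In the genome build GRCm38 Kctd14 lies on the plus strand of chr7:97451323-97459557 as a protein coding gene with 6 annotated transcripts. Of these, 5 end at nearly the same position, between 97459553 and 97459557, and 4 of them have coding regions of 702, 702, 798 and 861 nt, while the fifth is marked for nonsense-mediated decay. The transcript Kctd14-202 ends further upstream, at position 97458456. The last 500 nt of the other 5 transcripts had no match to any other annotated gene at 90% identity over 100 nt. The last 500 nt of Kctd14-202 matched 377 other genes over up to 141 nt, and reads from such a stretch can match several places, which the counts leave out. No annotated gene overlaps Kctd14, so that its counts do not depend on how reads of a pair of overlapping genes were divided.

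Between 5446576 and 8257041 reads per sample were counted on genes, which was between 48.9% and 58.4% of the reads. Kctd14 itself held between 396 and 8837 reads, so that its counting error was small beside the differences between mice. All 9 granulosa markers had counts, with a summed level between 5338 and 12391 CPM. CPM is the count of a gene relative to the size of the library, which was scaled by the TMM method. FL1 mouse 2 in estrus stood apart from its group in several genes described here, and several results are given with and without it.

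In ctrl mice in estrus Kctd14 was at 914, 684, 1014, 806 and 514 CPM in mice 1 to 5. In ctrl mice in diestrus the values were 210.2, 122, 85.5, 72.1 and 123 CPM. In FL1 mice in estrus they were 206, 116.1, 202, 252 and 337 CPM, and in FL1 mice in diestrus they were 83.8, 96.4, 149, 122 and 77.6 CPM. All 5 ctrl mice in estrus lay above all other 15 mice, and the remaining groups overlapped with one another.

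**Figure D1:**
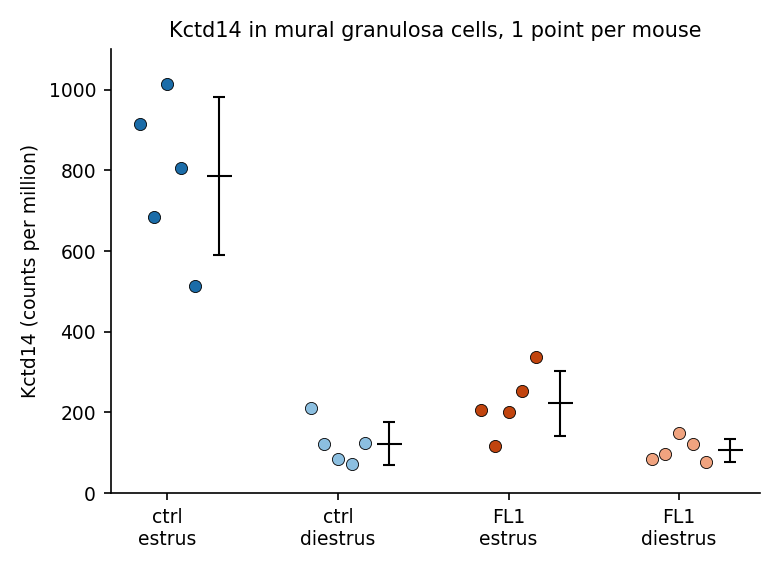
Level of Kctd14 in CPM (y axis, linear from 0) in the 4 groups (x axis), with 1 point per mouse in the order of the replicate numbers and the mean ± SD of 5 mice beside the points. The ctrl mice in estrus sit between 514 and 1014, and no other mouse is above 337.

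In estrus the mean level (± SD of 5 mice) was 786 ± 196 CPM in ctrl mice and 223 ± 80.5 CPM in FL1 mice. In diestrus it was 123 ± 53.8 CPM in ctrl mice and 105.8 ± 29.6 CPM in FL1 mice. The groups were therefore in the order ctrl estrus, FL1 estrus, ctrl diestrus and FL1 diestrus. The spread between mice separated the first group of this order from the second, but not the second from the third or the third from the fourth.

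Kctd14 ranked 92 among 14938 genes by mean level in ctrl mice in estrus. Its rank was 650 in FL1 mice in estrus, 1498 in ctrl mice in diestrus and 1823 in FL1 mice in diestrus. It was thus among the more abundant transcripts of GCs in every group, with its highest rank in ctrl mice in estrus. The coefficient of variation between the mice of a group was between 24.9% (ctrl estrus) and 43.9% (ctrl diestrus).

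In ctrl mice the level in diestrus was 6.44-fold lower than in estrus, a log2 fold change of -2.69 (SE 0.28) from the edgeR fit across 12850 genes. The values of both groups did not overlap, which held with lower values in diestrus for 1.84% of all genes tested. In the same comparison 175 genes (1.36%) were called at an adjusted p of 0.05 or less, 74 of them (0.576% of all genes) lower and the rest (0.786%) higher in diestrus. Among the 8343 genes with a mean of 100 or more counts, 15 had a larger change in either direction than Kctd14.

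In FL1 mice the level in diestrus was 2.12-fold lower than in estrus (log2 fold change -1.08, SE 0.27). The groups overlapped, since FL1 mouse 2 in estrus, at 116.1 CPM, was below 2 of the mice in diestrus. The other 4 mice in estrus were above all mice in diestrus, and without mouse 2 the log2 fold change was -1.26. In FL1 mice 29 of 13114 genes (0.221%) were called between the stages, 10 of them (0.0763%) higher and 19 (0.145%) lower in diestrus.

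In estrus the level was 3.54-fold lower in FL1 mice than in ctrl mice (log2 fold change -1.82, SE 0.26), without overlap of the lines. This comparison shares the ctrl mice in estrus with the comparison of stages in ctrl mice, so that both rest on the same 5 high values. Lower values in FL1 mice without overlap were found for 1.71% of 13007 genes, and 100 genes (0.769%) were called, 54 of them (0.415%) higher and 46 (0.354%) lower in FL1 mice. In diestrus the lines overlapped, and the log2 fold change of FL1 against ctrl was -0.21 (SE 0.28). Leaving out ctrl mouse 1 in diestrus, which had the highest value of its group, moved it to 0.08. In that stage 32 of 12886 genes (0.248%) were called, 12 of them (0.0931%) higher and 20 (0.155%) lower in FL1 mice.

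The difference of both stage effects, FL1 minus ctrl, was 1.61 on the log2 scale (SE 0.39), and 63 of the 8343 genes with a mean of 100 or more counts had a larger difference in either direction. Of 14938 genes tested no gene reached an adjusted p of 0.05 in this comparison (0%) with edgeR, DESeq2 or limma-voom, while 710 genes (4.75%) had an unadjusted p under 0.05 with edgeR, 976 with DESeq2 and 903 with limma-voom.

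The levels of markers of other cells of the ovary are given beside those of Kctd14 as summed CPM. The summed level of the 11 theca and stroma markers ranged from 813 to 1956 CPM in ctrl mice in estrus and from 386 to 1397 CPM in ctrl mice in diestrus. It ranged from 1320 to 2255 CPM in FL1 mice in estrus and from 255 to 2373 CPM in FL1 mice in diestrus. The FL1 mice in estrus were thus not below the ctrl mice in estrus in this panel, whereas they were in Kctd14. The 9 macrophage and leukocyte markers ranged from 21.2 to 70.6 CPM in ctrl mice in estrus and from 7.69 to 20.7 CPM in ctrl mice in diestrus, without overlap. In FL1 mice they ranged from 55.3 to 134 CPM in estrus and from 12.7 to 96.6 CPM in diestrus. The 6 endothelium markers had means of 60.2 and 31.0 CPM in ctrl mice in estrus and diestrus and of 90.8 and 75.1 CPM in FL1 mice. The 8 surface epithelium markers had means of 38.2 and 35.5 CPM in ctrl mice and of 76.9 and 31.1 CPM in FL1 mice, in the same order. The 5 red blood cell markers had means of 432 and 221 CPM in ctrl mice and of 622 and 790 CPM in FL1 mice, and the 8 oocyte markers had 216, 232, 312 and 327 CPM. Except for the oocyte markers, the panels were thus higher in ctrl mice in estrus than in diestrus by their means, as Kctd14 was, but also higher in FL1 than in ctrl mice in estrus, where Kctd14 was lower. No marker of these panels was at 0 in all samples, and the part of other cells in the level of Kctd14 was not tested. In these bulk samples fewer cells of a type and less RNA per cell cannot be told apart.

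The relatives of Kctd14 were then compared. The list held 28 genes, the other members of the KCTD family, related BTB proteins (Tnfaip1, Shkbp1 and Kcnrg) and the ligase parts Cul3, Rbx1, Nedd8 and Cand1. None of the 23 genes tested was called between the stages of ctrl mice or between the lines in estrus, against the 1.36% and 0.769% of all genes given above. With edgeR 2 and 1 of them had an unadjusted p under 0.05 in these comparisons, beside 11.8% and 10.7% of all genes, and DESeq2 and limma-voom also called none. In FL1 mice 0 of 21 were called between the stages, and 3 had an unadjusted p under 0.05, beside 9.48% of all genes. In diestrus 0 of 23 were called between the lines, and 0 had an unadjusted p under 0.05, beside 5.56% of all genes. In the interaction 0 of 24 were called (2 at an unadjusted p under 0.05), and DESeq2 and limma-voom called none in these comparisons either.

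The median log2 fold change of the list was 0.06 between the stages of ctrl mice and 0.07 between those of FL1 mice, beside 0.00 and 0.01 for all genes. Between the lines it was -0.16 in estrus and 0.00 in diestrus, beside 0.01 for all genes in each stage. The median of the family thus lay within 0.2 of that of all genes in each of these comparisons. The largest fold change of the list between the lines in estrus was that of Shkbp1, a low gene with 6.17 ± 3.90 CPM in ctrl and 1.01 ± 1.73 CPM in FL1 mice (SD of 5 mice, log2 fold change -2.60, SE 1.28, adjusted p = 0.485 by edgeR). It was in the direction of Kctd14, but the values of both lines overlapped.

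Among the adaptors Kctd20 was the most abundant relative of Kctd14 in ctrl mice in estrus, at 118 CPM, followed by Tnfaip1, a CUL3 adaptor for the small GTPase RhoA, at 93.4 CPM. Both were at similar levels in ctrl mice in diestrus, 121 and 88.7 CPM. Kctd14 was thus above every other adaptor of the list in ctrl mice in estrus. In diestrus it was at the level of Kctd20, 123 beside 121 CPM in ctrl mice and 105.8 beside 96.8 CPM in FL1 mice.

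Of the parts of the ligase, the scaffold Cul3 was at 118 CPM in ctrl mice in estrus and at 127 CPM in diestrus (log2 fold change 0.09, adjusted p = 0.915 by edgeR). Rbx1, the RING subunit, Nedd8, the modifier that activates cullins, and Cand1, the factor that exchanges their adaptors, had log2 fold changes of 0.01, -0.09 and 0.06 in the same comparison. The largest change of the list between the stages of ctrl mice was that of Kctd12b, a relative of the GABA B receptor subunit Kctd12, with 10.1 CPM in estrus and 24.8 CPM in diestrus (log2 fold change 1.29, adjusted p = 0.202 by edgeR). Kctd8, Kctd16 and Kctd19 had no counts in any of the 20 samples, and Kctd4 had none in 14 of them.

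**Figure D2:**
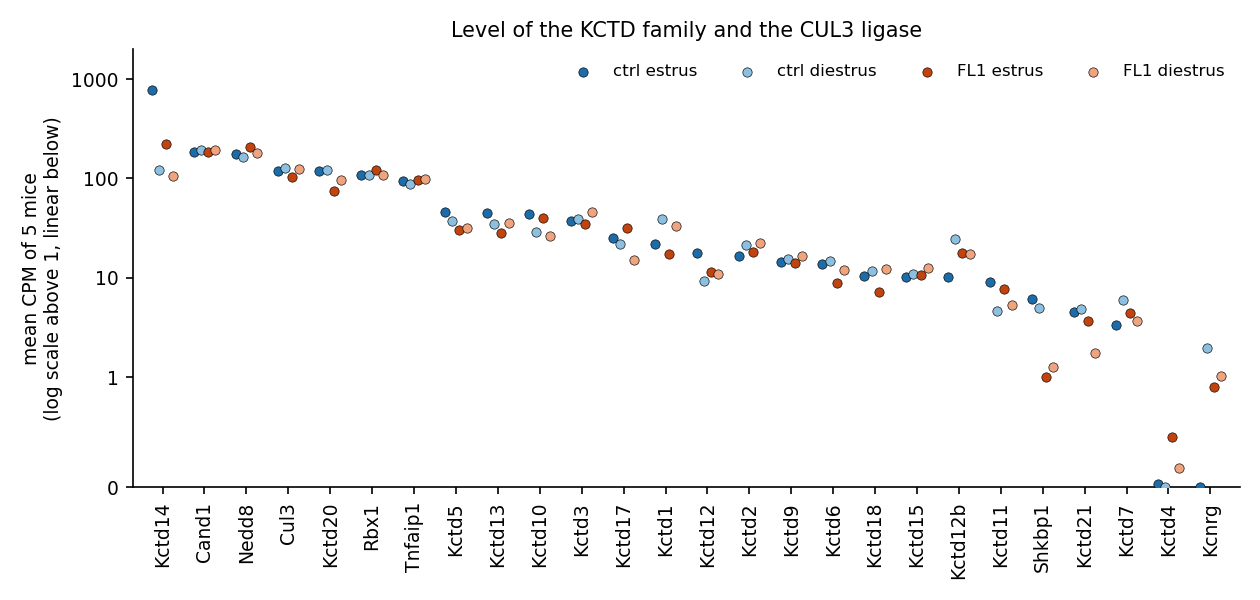
Mean level in CPM of 5 mice (y axis, logarithmic above 1 and linear below) of Kctd14, its relatives and parts of the CUL3 ligase (x axis, in the order of the level in ctrl mice in estrus), with 1 colored point per group and without the genes at 0. Kctd14 stands at 786 in ctrl mice in estrus, above all other genes shown.

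The genes next to Kctd14 were compared in the same way. Within 500 kb on either side 23 genes are annotated, the nearest being Ints4, a subunit of the Integrator complex, 21399 bp after Kctd14, and Thrsp, a gene of lipid synthesis, 33593 bp before it. With edgeR none of the 11 neighbors tested was called between the stages of ctrl mice and none of 13 between the lines in estrus, beside 1.36% and 0.769% of all genes. In each comparison 1 neighbor had an unadjusted p under 0.05, beside 11.8% and 10.7% of all genes, so that these counts were near the background. DESeq2 called 1 gene in each of these comparisons, beside 2.28% and 1.83% of all genes, and limma-voom called 1 and 0, beside 1.6% and 0.815%.

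The neighbor called by DESeq2 and limma-voom between the stages was Gab2, an adaptor of growth factor receptors. In ctrl mice Gab2 was at 107.5 ± 36.9 CPM in estrus and at 201 ± 25.4 CPM in diestrus (SD of 5 mice), and its log2 fold change was 0.90 (SE 0.23, adjusted p = 0.0683 by edgeR). Its direction was thus opposite to that of Kctd14. The neighbor called by DESeq2 between the lines was Rpl15-ps5, a ribosomal pseudogene whose reads may come from copies of the same sequence, with a log2 fold change of -2.82 (SE 1.04).

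Ints4 was at 74.7 CPM in ctrl mice in estrus and at 67.4 CPM in diestrus (log2 fold change -0.16, SE 0.24). Ndufc2, a subunit of respiratory complex I and the neighbor with the highest level, was at 437 and 367 CPM (log2 fold change -0.26, SE 0.20). Kctd21, a relative of Kctd14 that lies 101110 bp before it, was at only 4.50 and 4.90 CPM (log2 fold change 0.11, SE 1.18). The log2 fold changes of all 11 neighbors lay between -0.32 and 0.90, and that of Kctd14 lay below all of them.

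**Figure D3:**
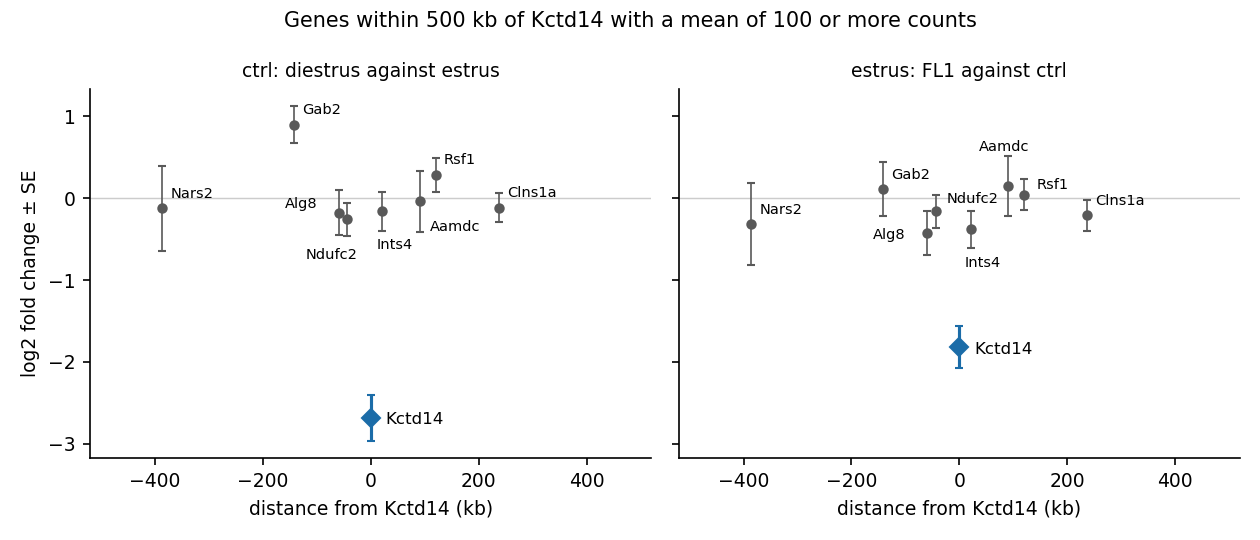
Log2 fold change ± SE from edgeR (y axis) of Kctd14 (diamond) and of the neighboring genes with a mean of 100 or more counts (circles) by their distance from Kctd14 in kb (x axis, negative before and positive after the gene), between the stages in ctrl mice on the left and between the lines in estrus on the right. Kctd14 lies at -2.69 and -1.82, below every neighbor shown, and Gab2 lies at 0.90 on the left.

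The genes that varied together with Kctd14 were then searched among the mice of the same group. For this the log2 CPM of each gene was taken as a deviation from the mean of its group, and the Pearson correlation r over the 20 samples was computed for 14937 genes. All points share the 20 libraries, and each group adds only 5 of them. With limma, on group and the level of Kctd14, 6 genes (0.0402%) passed an adjusted p of 0.05, 4 of them (0.0268%) with a positive r. At an unadjusted p under 0.05 there were 1726 genes (11.6%), and 855 of these (5.72% of all genes) had a positive r. The r of 1263 genes (8.46%) was positive and that of 1359 genes (9.1%) negative in all 4 groups.

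The deviations of Kctd14 were largest in ctrl mouse 1 in diestrus, 0.88 above the group mean on the log2 scale, and in FL1 mouse 2 in estrus, with a deviation of -0.86. The number of genes called depended on single mice. It was 89 without FL1 mouse 2 in estrus and 0 without ctrl mouse 4 or FL1 mouse 3 in diestrus. Of the 6 genes called, Klf6 was lost in 14, Smc1a in 10, Gabpb2 in 9, Creld2 in 8, Glul in 5 and Sema3g in 2 of 20 fits with 1 sample left out.

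The share of reads with several matches also moved with Kctd14 within groups, with r = -0.617 (rho = -0.639, n = 20), and so did the red blood cell markers (r = -0.481) and the theca and stroma markers (r = -0.395). The summed granulosa markers had r = 0.38, with 9 of 9 markers above 0 and 6 of 9 without FL1 mouse 2 in estrus. With the share of reads with several matches, the theca and stroma markers or the red blood cell markers as a covariate, limma called 0 genes, beside 721, 1129 and 995 genes at an unadjusted p under 0.05. Over 10 other settings, these covariates among them, the r or rho of Sema3g, Smc1a, Creld2 and Gabpb2 was 0.669 or above. That of Glul and Klf6 was -0.686 or below. The part of these measures in the covariation was not tested beyond these fits.

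The 10 genes with the highest r, among those with a positive r in every group and a mean of 10 or more counts, were led by proteins of the endoplasmic reticulum (ER). Hspa5, the chaperone BiP, had the highest r, 0.847 (rho = 0.872), and Calr, the chaperone calreticulin, had 0.843 (rho = 0.773). Neither passed the limma test over all genes (adjusted p = 0.127 for Hspa5). Creld2, an ER protein induced when unfolded proteins accumulate, had r = 0.818 (rho = 0.812) and passed it (adjusted p = 0.0355 by limma). P4hb, a protein disulfide isomerase, had r = 0.798 (rho = 0.761).

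In ctrl mice in estrus Creld2 was at 320, 240, 330, 210 and 164 CPM in mice 1 to 5, in ctrl mice in diestrus at 104.6, 106.7, 90.8, 59.4 and 102.7 CPM. In FL1 mice it was at 165, 45.6, 141, 140 and 182 CPM in estrus and at 70.7, 101.1, 119, 121 and 75.9 CPM in diestrus. Mouse 5 of ctrl in estrus, mouse 4 of ctrl in diestrus and mouse 2 of FL1 in estrus were the lowest of their groups in both Creld2 and Kctd14. Without the 2 mice that lay farthest from their group mean in Kctd14, r was 0.858 for Creld2, 0.815 for Hspa5 and 0.742 for Calr.

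Hspa5, at several times the level of Kctd14, was at 4639, 4545, 5042, 3870 and 3047 CPM in ctrl mice in estrus and at 3297, 2886, 2512, 1917 and 3103 CPM in ctrl mice in diestrus. In FL1 mice it was at 2662, 1805, 2922, 3552 and 4206 CPM in estrus and at 1885, 3098, 3451, 3607 and 2998 CPM in diestrus. In FL1 mice in estrus the order of the mice by Hspa5 was close to that by Kctd14 (r = 0.988, n = 5), and it was looser in FL1 mice in diestrus (r = 0.631, n = 5).

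The other genes that passed with a positive r were Sema3g, a secreted semaphorin, with r = 0.819 (adjusted p = 0.0166 by limma), Smc1a, a core subunit of cohesin, with r = 0.825 (adjusted p = 0.0355), and Gabpb2, a subunit of the transcription factor GABP, with r = 0.805 (adjusted p = 0.0355). Their r was positive in each group, with values between 0.725 (Gabpb2 in FL1 mice in diestrus) and 0.964 (Sema3g in FL1 mice in estrus). These 3 genes did not differ with stage or line in the way Kctd14 did. The mean level of Smc1a was 203 CPM in ctrl mice in estrus and 192 CPM in diestrus (log2 fold change -0.09, adjusted p = 0.958 by edgeR). Sema3g was at 174 and 185 CPM in the same groups and at 114.4 and 249 CPM in FL1 mice in estrus and diestrus, so that its highest mean was in the group with the lowest mean of Kctd14.

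The remaining genes with the highest r were Cdc7, a kinase that starts DNA replication (r = 0.797, rho = 0.735), Dek, a chromatin protein (r = 0.787, rho = 0.674), and Cep83, a protein of the centriole (r = 0.774, rho = 0.743). Without the 2 mice farthest from their group mean, r fell to 0.665 for Cdc7 and to 0.575 for Dek and was 0.78 for Cep83. In FL1 mice in diestrus the r of Dek was 0.018, so that its covariation came from the other 3 groups.

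Among genes with a negative r, Glul, the glutamine synthetase, had r = -0.779 (rho = -0.698, adjusted p = 0.0355 by limma), and Klf6, a zinc finger transcription factor of the early response, had r = -0.773 (rho = -0.686, adjusted p = 0.0403 by limma). Glul was at 1087 CPM in FL1 mouse 2 in estrus, the mouse with the lowest Kctd14 of its group, and between 165 and 348 CPM in the other 4 mice of that group. Without the 2 mice farthest in Kctd14 its r was -0.568.

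The 5 lowest r with the same sign in every group were those of Creb3 (-0.827), Psmd8 (-0.825), AC138790.1 (-0.824), Gm10073 (-0.815) and Arf6 (-0.813). Creb3 is a transcription factor anchored in the ER membrane, Psmd8 is a subunit of the proteasome, and Arf6 is a GTPase of membrane traffic. None of the 5 passed the limma test. AC138790.1 and Gm10073 were at means between 1.89 and 4.51 CPM, where r rests on few reads.

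**Figure D4:**
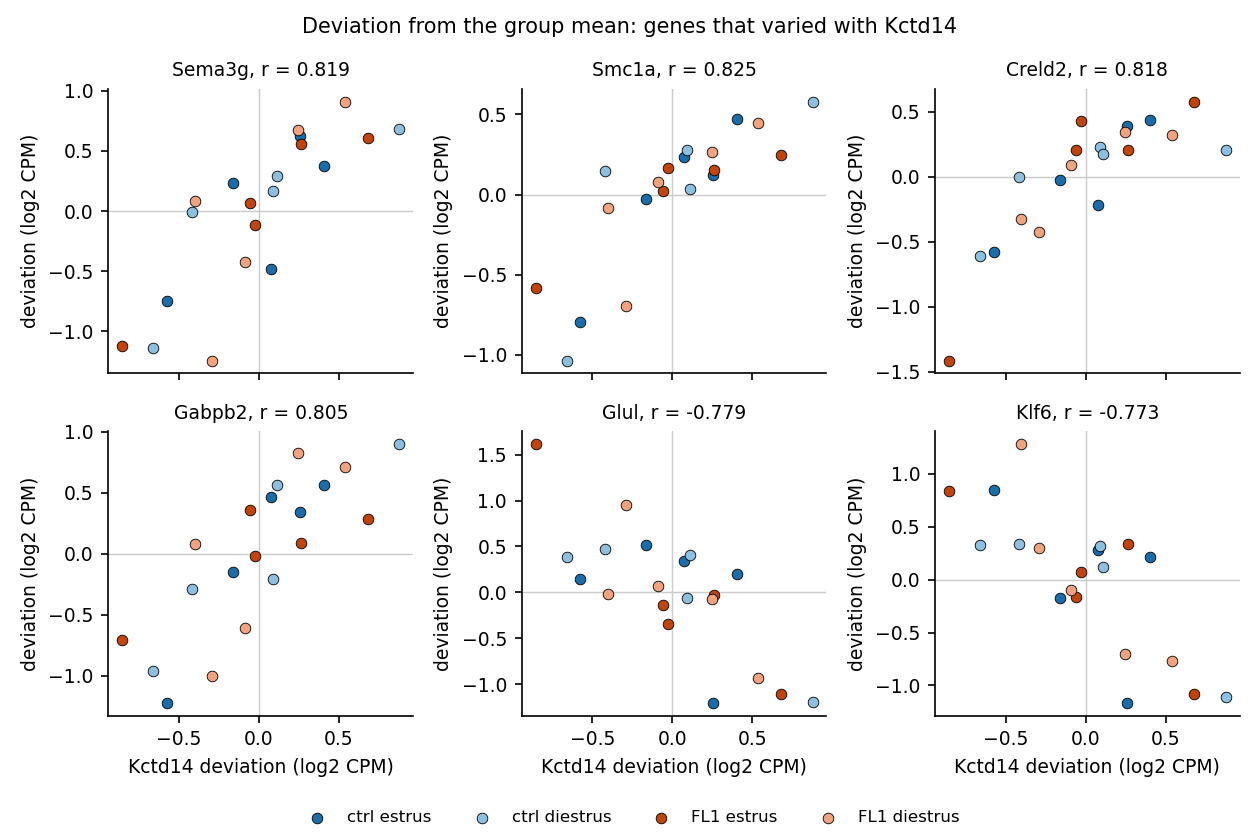
Deviation of 6 genes from their group mean (y axes, log2 CPM) against the deviation of Kctd14 (x axes, log2 CPM), with 1 point per mouse colored by group. The genes are the 6 that passed the limma test: Sema3g, Smc1a, Creld2 and Gabpb2 rise with Kctd14 (r between 0.805 and 0.825), and Glul and Klf6 fall (r of -0.779 and -0.773).

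Over the 20 samples without centering, the genes most like Kctd14 were Isyna1 (r = 0.914), Creld2 (0.904), Fscn1 (0.882), Calr (0.881) and Pgbd5 (0.866). This r mixes the differences between the groups, which chose Kctd14, with those between mice, and is given as a description. Isyna1, the enzyme that makes inositol phosphate from glucose phosphate, was at 426 ± 61.1 CPM in ctrl mice in estrus and at 128 ± 33.1 CPM in ctrl mice in diestrus. It was at 203 ± 53.0 CPM and 124 ± 43.3 CPM in FL1 mice in estrus and diestrus (SD, n = 5 each). Its log2 fold change was -1.74 between the stages of ctrl mice and -1.07 between the lines in estrus, which the choice by r without centering favors, so that no test is given. Within groups the r of Isyna1 was 0.487 and that of Pgbd5, a gene derived from a transposase, was 0.427.

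Fscn1, an actin bundling protein, combined both kinds of likeness, with r = 0.743 within groups. It was at 1399 ± 454 CPM in ctrl mice in estrus and at 459 ± 143 CPM in ctrl mice in diestrus (log2 fold change -1.61, given without a test for the same reason). In FL1 mice it was at 750 ± 195 CPM in estrus and 610 ± 103.7 CPM in diestrus (log2 fold change -0.31).

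Because Hspa5, Calr, Creld2 and P4hb were among the highest r, 32 genes of protein folding in the ER were listed after these values had been seen. The r of 28 of the 32 genes was above 0, with a median of 0.492, beside 46.8% and a median of -0.027 for all genes. These values include Hspa5, Calr, Creld2 and P4hb, whose high r prompted the list, and are thus partly fixed by that choice. Without FL1 mouse 2 in estrus 26 of 32 were above 0 (median 0.428), and with the share of reads with several matches as a covariate 27 (median 0.397). P3h1, a prolyl hydroxylase of collagen (0.766), and the disulfide isomerases Pdia5 (0.763) and Pdia4 (0.734) had a high r. Xbp1, a transcription factor of the unfolded protein response, had -0.473, and Herpud1, a target of that response, had -0.326. Atf4, another of its transcription factors, had 0.701, so that the regulators did not move one way.

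Between the stages of ctrl mice 27 of the 32 ER genes had a fold change below 0, with a median of -0.42 on the log2 scale beside 0.00 for all genes, and edgeR called 4 lower in diestrus, beside 0.576% of all genes. DESeq2 called 9 and limma-voom 8 of the 32, beside 2.28% and 1.6% of all genes in either direction. Those called by edgeR were Creld2 (log2 fold change -1.45), Sdf2l1 (-1.38), Manf (-1.06) and Calr (-0.90), all soluble proteins of the ER. Creld2 and Calr were also among the 5 highest r without centering. That choice favors such a change, so that their calls are no independent test. The call of Calr was lost in 8 of 10 fits with 1 sample left out, that of Manf in 1 of 10. In FL1 mice 22 of 32 were below 0 with a median of -0.07, and edgeR called none between the stages (2 at an unadjusted p under 0.05, beside 9.48% of all genes), as did DESeq2 and limma-voom. The interaction was not called for any of the 32 genes by these 3 tools (5 at an unadjusted p under 0.05 with edgeR, beside 4.75% of all genes).

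In the same way 34 genes of DNA replication were listed after Cdc7 had been seen. The r of 25 was above 0, with a median of 0.30, and that of 23 without FL1 mouse 2 in estrus. The highest r of the list was 0.797, that of Cdc7, whose value prompted the list. Mcm3, a subunit of the replicative helicase, had r = 0.748, whereas Orc4, a subunit of the origin recognition complex, had -0.689. Between the stages of ctrl mice 32 of 34 were below 0 (median -0.56), and Mcm5 (log2 fold change -1.03) and Mcm7 (-0.88), of the same helicase, were called lower in diestrus by edgeR (2 of 34, beside 0.576% of all genes). The edgeR calls of Mcm5 and Mcm7 were each lost in 7 of 10 fits with 1 sample left out. DESeq2 called 5 and limma-voom 2 of the 34, beside 2.28% and 1.6% of all genes in either direction. In FL1 mice 13 of 34 were below 0 between the stages (median 0.06) and edgeR called none (1 at an unadjusted p under 0.05, beside 9.48% of all genes), as did DESeq2 and limma-voom. Between the lines in estrus edgeR called 1 of the 34 lower in FL1 mice, beside 0.354% of all genes. This was Rpa3, a subunit of the factor that covers single DNA strands, at 44.2 CPM in ctrl and 11.3 CPM in FL1 mice (log2 fold change -1.96). Its call was lost in 0 of 10 fits with 1 sample left out and in 1 of 7 other settings. DESeq2 and limma-voom called Rpa3 and also Mcm5, beside 1.83% and 0.815% of all genes in either direction.

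**Figure D5:**
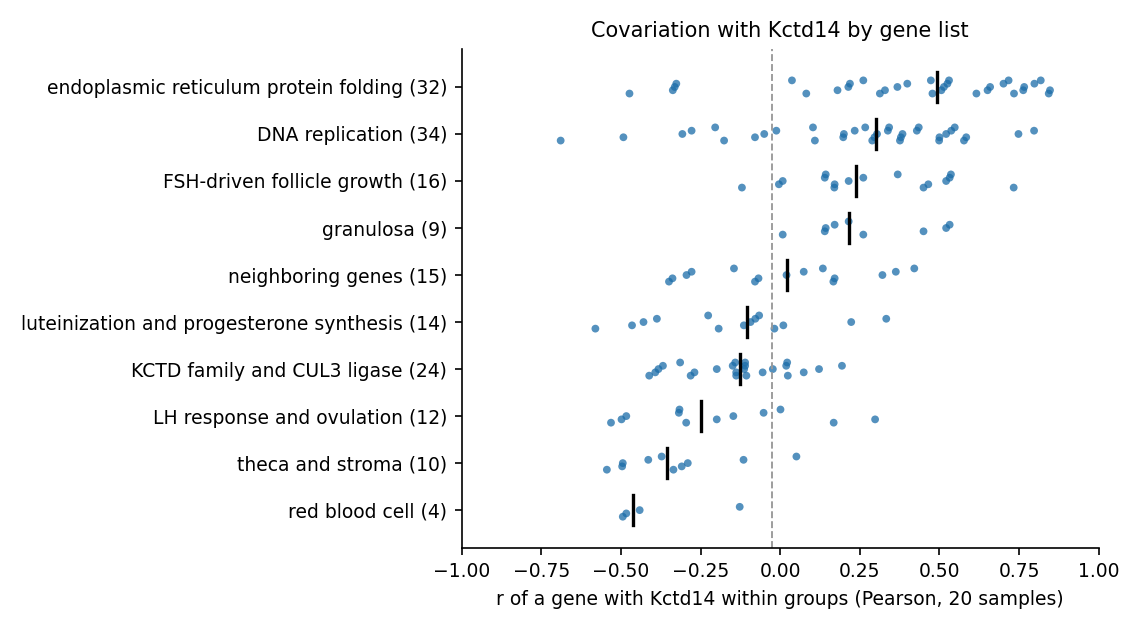
Correlation r with Kctd14 within groups (x axis, Pearson, 20 samples) of the genes of 10 lists (y axis, number of genes in parentheses), with 1 point per gene, the median of each list as a black bar and the median of all genes as a dashed line at -0.027. The lists of ER protein folding (median 0.492) and DNA replication (0.3), both chosen after values had been seen, lie highest, and the red blood cell markers (-0.462) lie lowest. With the share of reads with several matches as a covariate the medians were 0.397, 0.252 and 0.017.

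Of 16 genes of FSH-driven follicle growth, 12 had a fold change above 0 and 4 below 0 between the stages of ctrl mice, with a median of 0.47 on the log2 scale beside 0.00 for all genes. Those below 0 were Amh (-2.94), Ccnd2 (-0.54), Foxl2 (-0.43) and Hsd17b1 (-0.41), none of them called. With edgeR 4 genes were called higher in diestrus, beside 0.786% of all genes: Fshr, the FSH receptor, from 45.6 to 149.9 CPM (log2 fold change 1.71), Fst, the activin antagonist follistatin, from 505 to 1232 CPM (1.28), Nppc, the peptide that holds the oocyte in meiotic arrest, from 31.8 to 81.0 CPM (1.34), and Grem1, a BMP antagonist, from 31.4 to 260.2 CPM (3.04). DESeq2 called 6 and limma-voom 5 of the 16, beside 2.28% and 1.6% of all genes in either direction. In FL1 mice edgeR called none of the 16 between the stages (8 at an unadjusted p under 0.05, beside 9.48% of all genes). DESeq2 called 1 of them, Cyp19a1, the aromatase that makes estradiol, beside 1.12% of all genes. Between the lines edgeR, DESeq2 and limma-voom called none in either stage, with 7 of 16 genes in estrus and 1 of 15 in diestrus at an unadjusted p under 0.05 in edgeR, beside 10.7% and 5.56% of all genes. The call of Nppc was lost in 7 and that of Grem1 in 3 of 10 fits with 1 sample left out. Within groups, however, 14 of the 16 genes had an r above 0 (median 0.238), with the highest for Ccnd2, the cyclin of GC proliferation (0.733). Without FL1 mouse 2 in estrus, 10 of 16 were above 0 (median 0.189).

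Of 16 genes of the LH response and ovulation, 7 could be tested between the stages of ctrl mice. Of these, 2 had a log2 fold change above 0 and 5 below 0, with a median of -0.31. With edgeR 1 gene was called higher in diestrus, beside 0.786% of all genes. This was Egr1, an early response gene (29.3 and 110.1 CPM, log2 fold change 1.90), a call lost in 5 of 10 fits with 1 sample left out. DESeq2 and limma-voom called Egr1 and also Runx1, beside 2.28% and 1.6% of all genes. Runx1 was lower in diestrus (66.2 and 28.4 CPM, log2 fold change -1.23). The mediators of ovulation Ptgs2 and Areg were at 0.622 and 0.411 CPM in ctrl mice in estrus, when Kctd14 was at its highest. Within groups 9 of 12 genes had an r below 0 (median -0.247), with Egr1 at -0.531. Without FL1 mouse 2 in estrus 5 of 12 were above 0 (median -0.168).

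Of 14 genes of luteinization and progesterone synthesis, edgeR called 1, Scarb1, lower in ctrl mice in diestrus, beside 0.576% of all genes. Scarb1, the receptor that takes up HDL cholesterol, was at 726 CPM in estrus and 374 CPM in diestrus (log2 fold change -0.96). The call was lost in 8 of 10 fits with 1 sample left out. DESeq2 also called Star and Fdxr, and limma-voom also Fdxr, both lower in diestrus, beside 2.28% and 1.6% of all genes in either direction. In FL1 mice edgeR called 1 of the 14, Oxtr, the oxytocin receptor, lower in diestrus, beside 0.145% of all genes. Oxtr was at 118 and 20.4 CPM (log2 fold change -2.53), and the call was lost in 6 of 10 fits with 1 sample left out. DESeq2 called Oxtr, Star and Hsd17b7, and limma-voom Oxtr, Hsd17b7, Fdx1, Cyp11a1 and Akr1c18, beside 1.12% and 0.991% of all genes. Of these Hsd17b7 was higher in diestrus (51.5 and 290 CPM, log2 fold change 2.50) and the others were lower. In estrus edgeR called 7 of the 14 genes higher in FL1 than in ctrl mice, where Kctd14 was lower, beside 0.415% of all genes. DESeq2 called 10 and limma-voom 8 of the 14, beside 1.83% and 0.815% of all genes in either direction. From these samples the paper had listed Star, Lhcgr, Prlr, Oxtr, Fdx1 and Akr1c18 as more strongly expressed in FL1 mice in estrus. The list was chosen with earlier results known, so that these counts are no independent test. The 7 called by edgeR included Star, which brings cholesterol into mitochondria, at 639 beside 149 CPM (log2 fold change 2.10), and Akr1c18, which degrades progesterone, at 1873 beside 115.4 CPM (4.02). The other 5 were Lhcgr, Fdx1, Prlr, Runx2 and Oxtr, with log2 fold changes between 1.72 (Fdx1) and 3.57 (Runx2). Of the 7, limma-voom did not call Lhcgr, Runx2 and Oxtr. The call was lost in 6 (Runx2), 5 (Fdx1) and 4 (Lhcgr) of 10 fits with 1 sample left out. In 7 other settings it was lost in 3 (Lhcgr), 2 (Fdx1, Runx2 and Oxtr each), 1 (Star and Prlr each) and 0 (Akr1c18). In diestrus edgeR called Star and Runx2 higher in FL1 mice, beside 0.0931% of all genes. The call of Runx2 was lost in 4 of 10 fits with 1 sample left out. In this stage DESeq2 called 4 and limma-voom 1 (Star) of the 14, beside 0.499% and 0.217% of all genes. Within groups 3 of the 14 genes had an r above 0 (median -0.104), with Fdx1 lowest at -0.58. Without FL1 mouse 2 in estrus 6 of 14 were above 0 (median -0.101).

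Among the markers of other cells edgeR called Cyp17a1, the androgen making enzyme of theca cells, higher in ctrl mice in diestrus (10.6 and 95.6 CPM, log2 fold change 3.17). It ranged from 9.29 to 12.1 CPM in estrus and from 11.5 to 233 CPM in diestrus, and limma-voom did not call it. The collagen Col3a1 was called lower in diestrus than in estrus, where it was at 325 CPM (log2 fold change -1.64). This call was lost in 5 of 10 fits with 1 sample left out. These were 2 of the 9 theca and stroma markers tested, beside 1.36% of all genes. Of the 9 theca and stroma markers tested in this comparison, 8 had a fold change below 0 (median -0.94 on the log2 scale) and Cyp17a1 had one above 0. Cyp17a1 had r = -0.115 with Kctd14 within groups, and Col3a1 had r = -0.372. With the share of reads with several matches as a covariate, 6 of 10 theca and stroma markers had an r above 0 (median 0.04), beside 1 of 10 (median -0.354) without it.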

How the data were processed

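Gene expression of mural GCs was measured in 20 mice with a 3′ mRNA library kit. For every sample the authors deposited a table of counts by Ensembl gene without normalization. Per the labels and the paper, reads were trimmed and aligned with STAR to GRCm38, while the strand setting of the counting is not given in the sources used here. The labels and the paper name different kits for the RNA extraction. Line, stage and replicate number of all 20 samples came from the labels.

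Symbols and positions came from GENCODE M21 (55227 of 55487 identifiers matched). Each comparison used its 10 samples, the interaction all 20, with TMM normalization, edgeR's filter (minimum count 10, minimum total 15, minimum share 0.7) and the quasi-likelihood test with Benjamini-Hochberg adjustment. CPM were scaled by TMM over all samples. Covariation within groups was fitted with limma (trend) on log2 CPM (prior count 2) with 15 residual degrees of freedom. Copies were searched with BLAST 2.17.0. R 4.3.3, edgeR 4.0.16, limma 3.58.1, DESeq2 1.42.0 and Python 3.11.15 were used, and the fits were tested on simulated data.

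Kctd14 and the gene lists were chosen with earlier results of these data known. Named are the 10 highest and 5 lowest r within groups with the same sign in every group and a mean of 10 or more counts, the 5 highest r without centering, the neighbors within 500 kb, and the members of the lists that were called or were highest in level. The lists of ER protein folding and DNA replication, and within the lists the genes Xbp1, Herpud1, Atf4, P3h1, Pdia4, Pdia5, Mcm3, Orc4, Ptgs2, Areg, Amh, Hsd17b1, Foxl2, Ccnd2, Shkbp1 and Kctd12b, were chosen after their values had been seen. P-values measure the spread between mice. Alternatives were RLE size factors, no filter on low counts, DESeq2, limma-voom with sample weights, all samples in one fit, a block for the replicate number, and fits without 1 sample at a time, and for covariation other prior counts, library size only and removal of the first component. Covariates for the share of reads with several matches, theca and stroma markers and red blood cell markers were added after seeing the data. The replicate numbers number different mice and did not pair the samples, as the deviations of same-numbered samples had mean correlations between -0.0266 and 0.0311. No pair of samples of a group agreed within sampling noise (chi-square per gene between 24.7 and 82.5 in 40 pairs). Hormone and qPCR measurements were not analysed here.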

Additional observations from a re-analysis of the deposited data

Results flagged for a closer look

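In 84 sets of 5 mice, those of 21 genes (Kctd14 and the genes named for their likeness to it) in the 4 groups, 5 held a mouse whose value lay far from the other 4. Chance gives such a mouse in about 1 of 20 sets, so that 5 of 84 was near that share. FL1 mouse 2 in estrus accounted for 4 of them. It had 137.9 CPM of Dek, with the nearest other mouse of its group at 217.1 CPM, 275.4 CPM of Psmd8 (nearest 159.3 CPM), 231.3 CPM of Arf6 (nearest 129.7 CPM) and 1087 CPM of Glul (nearest 348.1 CPM). This mouse also had the lowest Kctd14 of its group. In ctrl mice in diestrus Klf6 was at 52.59 CPM in mouse 1, with the nearest mouse at 124 CPM, and this mouse had the highest Kctd14 of its group. Because the genes were named for an r that these mice take part in, the flags are no independent observation.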

How the results depend on the processing

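The log2 fold changes of Kctd14 moved by less than the spread between mice in all fits. With 1 sample left out they were between -2.97 and -2.54 (stages of ctrl mice), -1.26 and -0.89 (stages of FL1 mice), -2.02 and -1.66 (lines in estrus), -0.36 and 0.08 (lines in diestrus) and 1.45 and 1.89 (interaction), and in the other settings between -2.98 and -2.68, -1.13 and -1.04, -2.08 and -1.81, -0.30 and -0.01, and 1.59 and 1.82.

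The number of called genes depended more on the setting, and is given as a percentage of the genes tested in each fit. Without a filter on low counts 1.45% (stages of ctrl mice, 348 genes), 1.23% (stages of FL1 mice, 299), 1.55% (lines in estrus, 373), 0.439% (lines in diestrus, 55 higher and 52 lower) and 0.0223% (interaction, 6) were called. DESeq2 called 2.28% (525 genes), 1.12% (264), 1.83% (422) and 0.499% (118) in the first 4 comparisons. Between the stages of FL1 mice limma-voom called 0.991% (130 genes) and the fit of all samples 0.435% (65). With the share of reads with several matches as a covariate 0.877% (stages of FL1 mice, 33 genes higher and 82 lower), 0.161% (lines in estrus, 21 genes), 0.404% (lines in diestrus, 52) and 0.00669% (interaction, 1) were called. The cause was not tested.

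With 1 sample left out 0.583% to 1.31% of the genes were called between the stages of ctrl mice, 0.0958% to 1.31% between those of FL1 mice, 0.49% to 0.966% between the lines in estrus and 0.158% to 0.237% in diestrus. Between the stages of ctrl mice the share was 0.66%, 0.682% and 0.754% without ctrl mouse 2, 3 or 4 in estrus and 0.783% and 0.583% without ctrl mouse 3 or 5 in diestrus. Between the stages of FL1 mice it was 1.31% (178 genes) without FL1 mouse 1 in diestrus and 0.133%, 0.0958%, 0.104% and 0.103% without mouse 2, 3, 4 or 5 of that group. Between the lines it was 0.49% in estrus without FL1 mouse 1 and 0.158% in diestrus without FL1 mouse 4.

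Of genes that vary with Kctd14 within groups, 10 were called after removal of the first component and 0 with the share of reads with several matches, the theca and stroma markers or the red blood cell markers as a covariate. With 1 sample left out 0 to 89 were called. The count was 2 without ctrl mouse 1 or 5 in estrus or ctrl mouse 1 in diestrus, 3 without FL1 mouse 1 and 15 without FL1 mouse 5 in estrus, and 1, 1 and 12 without FL1 mouse 1, 4 and 5 in diestrus. The signs of r of the 20 genes named for their likeness to Kctd14 remained in every fit run for them. Signs of other genes were not followed singly, and the list medians of the red blood cell and the theca and stroma markers rose above 0 with the share of reads with several matches as a covariate.

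With the replicate number as a block, 0.446% of the genes (58) were called between the lines in estrus, 0.101% (13) between the lines in diestrus and 0 for covariation with Kctd14. The numbers mark no shared animal, and 4 of 20 samples correlated best with a sample of their own number. The depth limits genes such as AC138790.1, whose r rests on few reads.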
